A study of Mus musculus with 36 samples.

Results

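The chemokine family of the fracture callus was read from 65 probes of 51 gene symbols, out of 25697 probes of 18138 symbols on the array. A probe was taken as a member when its symbol begins with Ccl, Cxcl, Ccr or Cxcr followed by a number, or with Cx3c. The rule itself used no measured value, but it was chosen with earlier results of these data known. Chemokines are small secreted proteins that steer leukocyte migration by binding G protein-coupled receptors on the cell surface, and they are named CC, CXC or CX3C after the spacing of their first cysteines. Inflammatory members draw neutrophils and monocytes into injured tissue, whereas homeostatic members guide lymphocytes to lymphoid organs or hold blood progenitors in the marrow. In bone, the pair Cxcl12 and Cxcr4 is known for retaining hematopoietic cells and for attracting mesenchymal progenitors, and mouse Ccl9 is a chemokine made by osteoclasts.

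The study asked how healing of a closed femoral fracture proceeds without adaptive immune cells. Male C57BL/6N wild type mice (WT) and RAG1-/- mice, which cannot rearrange antigen receptor genes and so lack mature T and B cells, were operated on at 8 weeks of age, and a pin in the marrow cavity held the fractured femur. Callus with 1 mm of bone on either side was taken at D3, D7, D14, D21 and D28, and the same region of intact femur served as D0, although the sample labels name callus for every sample. Each of the 12 groups of genotype and day is a pool of 5 mice whose RNA was hybridized to 3 Illumina MouseRef-8 arrays, which gave 36 arrays. The p-values within a day or against D0 therefore measure the spread between arrays of a pool, and not between mice. All values are log2 intensities, on which a difference of 1 is 2-fold. In such bulk tissue, fewer cells of a type and less RNA per cell cannot be told apart.

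The single probe for Rag1 read 4.34 to 6.80 in the 18 WT arrays and 4.40 to 4.90 in the 18 RAG1-/- arrays, near the lowest value of the table (4.17). No source used here places the probe inside or outside the deleted part, so it did not check the genotype. The probes for Cd3d, Cd3e, Cd3g, Cd4, Cd8a and Ms4a1, which define T and B cells, also had means below the median probe mean. WT arrays of a pool correlated at 0.885 to 0.994 and RAG1-/- arrays at 0.983 to 0.995. The first principal component, with 38.5% of the variance, placed the WT D3 and D7 arrays at 90.5 to 97.3 and all others between -38.6 and 19.8. At WT D14, replicates 2 and 3 correlated at 0.994 with each other, at 0.948 and 0.950 with replicate 1, and at up to 0.984 with arrays of RAG1-/- D21. Erythroid markers were at 7.52 to 10.3 within that pool. The D14 results are therefore also given with replicate 1 alone, where the lone WT array is assumed to vary like the other pools, so that those p-values carry no spread of its own pool. All 3 arrays of WT D21 and all 3 of WT D28 also correlated better with a WT D14 array than with any array of their own pool (for WT D28 replicate 1, 0.932 against 0.906), as did WT D14 replicate 1 with WT D21 (0.962) and WT D7 replicate 3 with WT D3 (0.908). The WT side of the D21 and D28 results rests on these pools. Median SDs of the tested chemokine probes were 0.263 to 0.726 in WT pools and 0.102 to 0.177 in RAG1-/- pools.

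The median probe mean over the 36 arrays was 4.72, and 28 of the 65 chemokine probes (43.1%), for 24 symbols, lay above it. Ligands made up most of these, with 24 of 43 ligand probes and 4 of 22 receptor probes above the median. By role, the count was 7 of 19 probes for inflammatory CC chemokines and receptors, 1 of 4 for neutrophil-attracting CXC ligands (Cxcl1), 1 of 4 for interferon-inducible CXC members (Cxcl9), 9 of 13 for stromal and marrow members, and 10 of 25 for lymphoid, mucosal and skin homing members. Each symbol was given a single role, and these roles are coarse. The platelet chemokine Cxcl4 was counted as lymphoid and homing, and Cx3cr1, a receptor of monocytes and macrophages, as stromal and marrow. The receptors above the median were Cxcr4, Cx3cr1, Ccr6 (probe ILMN_2639012) and Ccr9. Just inside the limit lay Ccr9 at 4.74, a second Cxcl14 probe (ILMN_2659426) at 4.79 and Ccl6 at 4.82. Just outside lay Cxcl17 at 4.71 and a second Ccl25 probe (ILMN_2661722) at 4.70.

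**Figure D1:**
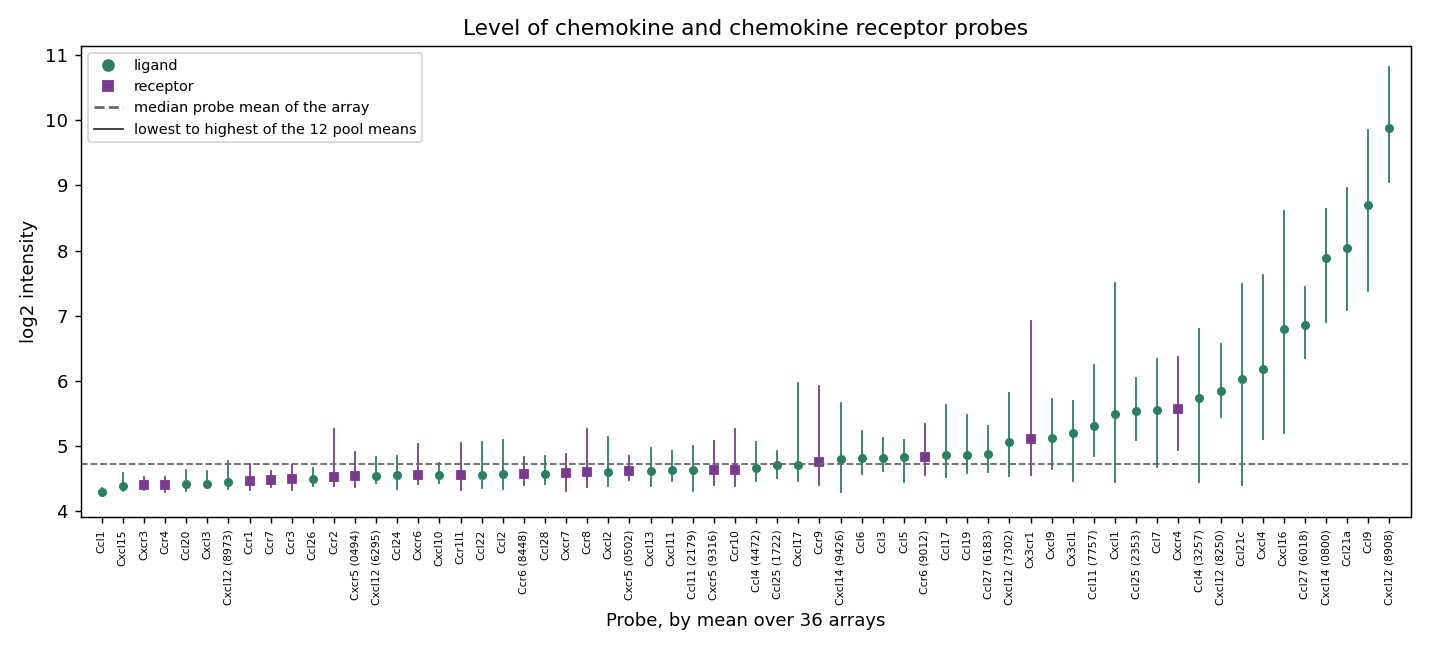
Mean log2 intensity of 62 of the 65 probes over the 36 arrays (symbols; circles are ligands, squares receptors), with a line from the lowest to the highest of its 12 pool means and a dashed line at the median probe mean of the array, 4.72. Most receptor probes sit at or under the dashed line, and the long lines belong to members such as Cxcl16, Ccl21c and Cxcl1. Probes differ in brightness by their own sequence, so the order along the axis is not an order of RNA amount.

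The pool means of the 28 probes above the median spanned 0.52 to 3.40 log2 units, with a median span of 1.38, and 21 of them spanned more than 1. The widest spans were those of Cxcl16 (5.20 in WT D0 to 8.60 in RAG1-/- D28), Ccl21c (4.39 in WT D7 to 7.48 in WT D28) and Cxcl1 (4.43 in WT D28 to 7.51 in RAG1-/- D7). The 37 probes below the median read 4.19 to 6.63 over all arrays, and 24 of them had every pool mean below 5. Among those 37 were the probes for Ccl2, the main monocyte attractant, its receptor Ccr2, the neutrophil attractant Cxcl2, and Ccr1, Ccr7, Cxcl10, Cxcr3, Cxcl13 and Cxcr6.

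Sequence upstream of the start is shown for Cxcl1, Cx3cr1, Ccl9 and Cxcr4, because these were higher together in RAG1-/- late in healing, at D28. Of the other members higher on that day, Ccl4 and Cxcl16 had no entry in the sequence table, and Cxcl14 is not shown because its bright probe did not pass at D28. Of the 51 symbols, 36 had such a sequence (RefSeq, mouse GRCm38.p6). The 250 bases before the annotated start of each gene are given 5′ to 3′ on the gene's strand: Cxcl1 at chr5:90890995-90891244 on the plus strand, Cx3cr1 at chr9:120068297-120068546, Ccl9 at chr11:83578637-83578886 and Cxcr4 at chr1:128592300-128592549, these last on the minus strand. Capitals mark matches, on either strand, to a core NF-kappaB pattern (GGG, then 4 bases of any kind, then TCC) or to TATAAA, the TATA box.
Cxcl1: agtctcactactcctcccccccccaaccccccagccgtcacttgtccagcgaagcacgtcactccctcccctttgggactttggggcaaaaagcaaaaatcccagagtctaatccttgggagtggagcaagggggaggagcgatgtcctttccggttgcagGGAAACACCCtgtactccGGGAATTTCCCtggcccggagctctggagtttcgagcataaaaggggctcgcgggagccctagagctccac
Cx3cr1: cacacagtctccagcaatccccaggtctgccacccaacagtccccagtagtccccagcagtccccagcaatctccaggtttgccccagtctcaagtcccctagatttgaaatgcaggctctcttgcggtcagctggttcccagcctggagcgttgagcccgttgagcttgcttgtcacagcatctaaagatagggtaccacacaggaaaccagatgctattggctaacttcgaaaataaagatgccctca
Ccl9: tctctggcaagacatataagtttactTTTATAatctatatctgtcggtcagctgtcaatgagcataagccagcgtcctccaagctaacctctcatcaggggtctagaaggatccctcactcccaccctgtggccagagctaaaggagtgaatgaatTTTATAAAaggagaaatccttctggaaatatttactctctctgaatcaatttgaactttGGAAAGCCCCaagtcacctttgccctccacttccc
Cxcr4: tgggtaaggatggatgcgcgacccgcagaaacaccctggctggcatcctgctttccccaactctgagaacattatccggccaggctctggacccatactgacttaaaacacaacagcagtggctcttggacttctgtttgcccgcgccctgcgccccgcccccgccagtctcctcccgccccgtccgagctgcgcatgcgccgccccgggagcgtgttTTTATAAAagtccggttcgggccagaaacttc

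The NF-kappaB pattern matched the Cxcl1 sequence at 89 to 80 bases before the start and, on both strands with overlap, at 71 to 62 and 70 to 61 bases. It matched the Ccl9 sequence at 35 to 26 bases. TATAAA matched the Ccl9 sequence at 224 to 219 bases and, with overlap of both strands, at 94 to 89 and 92 to 87, and the Cxcr4 sequence at 32 to 27 and 30 to 25. The Cx3cr1 sequence held neither string of letters. The NF-kappaB pattern was present in 16.5% of the 32851 sequences of this length, in 33.3% of the 36 chemokine sequences and in 16.7% of the 18 that belong to members above the median. TATAAA was present in 12.4%, 25% and 22.2% of them. These are matches of letters and not sites of binding.

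Between the genotypes, chemokine probes were called on every day but D14, where the WT arrays of the pool disagreed with each other. Differences reached 9.45-fold (Cxcl16 at D28), and the day with the most calls depended on the setting. With the deposited scaling it was D28 (11 probes), with cyclic loess D3 (12, beside 9 at D28), and the methods' t-test gave 9 on both. A limma fit across the 12848 probes above the median called a probe at a Benjamini-Hochberg adjusted p under 0.05. At D0, 4 of the 28 chemokine probes were higher in RAG1-/- and 2 lower (14.3% and 7.14%), beside 12.6% and 6.72% of all tested probes. At D3 the counts were 2 higher and 5 lower (7.14% and 17.9%, beside 26.9% and 21%), and at D7 they were 4 higher and 1 lower (14.3% and 3.57%, beside 27.4% and 19.3%). At D14 no chemokine probe passed in limma or in the methods' t-test, 3 had an unadjusted p under 0.05, and 2.33% and 1.66% of all probes were called. With WT D14 replicate 1 alone, the differences were -0.94 for Ccl21a and 1.45 and 1.38 for Cxcl12 probes. The lack of calls at D14 thus depends on the WT arrays used. At D21, 1 was higher and 3 lower (3.57% and 10.7%, beside 14.4% and 8.94%), and at D28, 7 were higher and 4 lower (25% and 14.3%, beside 19.1% and 9.19%). With the deposited scaling, these shares lay near or below the background on every day but D28, and on that day they exceeded it by few probes. These counts are therefore no result about the family as a whole. The median difference of the 28 probes was -0.37 at D3 and -0.23 at D7, where that of all tested probes was 0.01 and 0.04, and it was within 0.11 of 0 on the other days. With the arrays rescaled by cyclic loess the chemokine medians at D0 and D28 changed sign, from 0.11 to -0.06 and from 0.08 to -0.11.

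**Figure D2:**
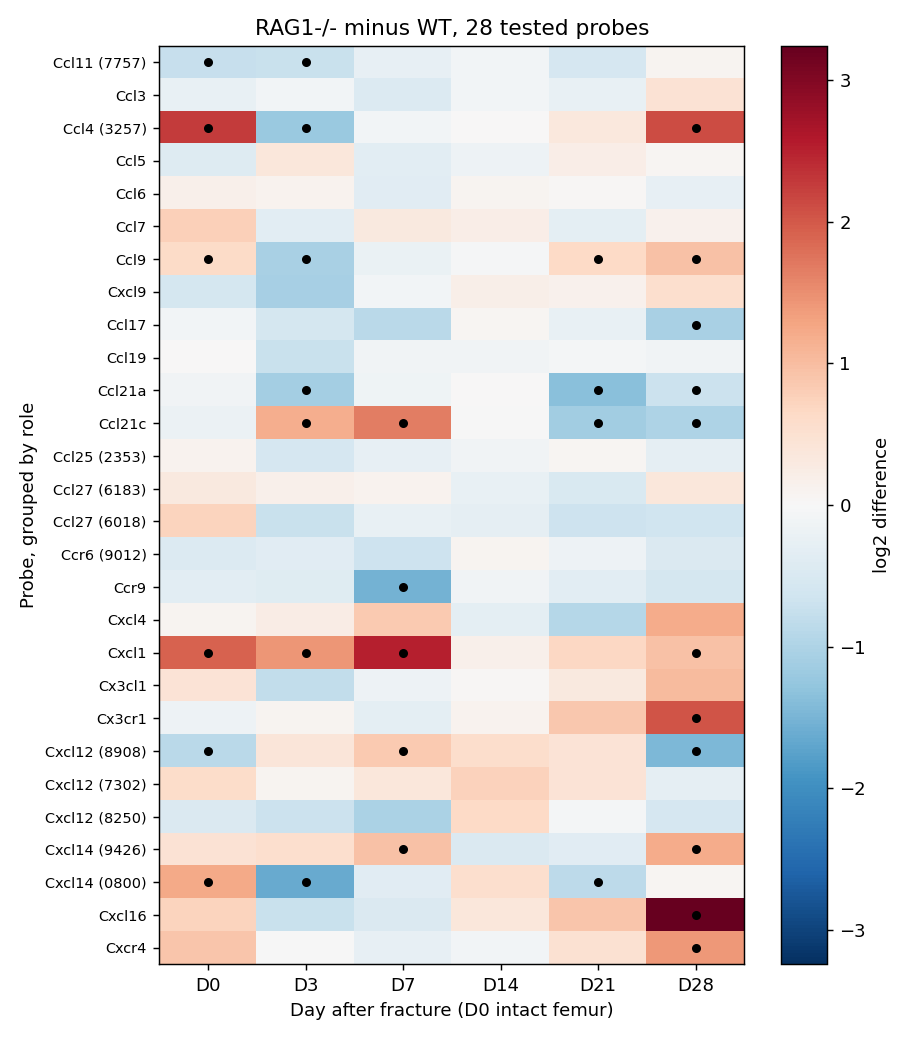
Log2 difference, RAG1-/- minus WT, of the 28 probes above the median (rows, grouped by role; the last digits of the probe are given where a symbol has several) on each of 6 days (columns); red is higher and blue lower in RAG1-/-, and a dot marks an adjusted p under 0.05. With this scaling, dots are absent at D14 and most frequent at D28, where Cxcl16 has the darkest cell at 3.24.

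Of the 28 probes, 14 (50%) were called on at least 1 day and 14 on none, beside 72.2% of all tested probes called on at least 1 day. Cxcl1, Cxcl16, Cx3cr1, Cxcr4 and the second Cxcl14 probe were called as higher in RAG1-/- and on no day as lower. Ccl11, Ccl17, Ccl21a and Ccr9 were called as lower and on no day as higher. Ccl4, Ccl9, Ccl21c, Cxcl12 (ILMN_2658908) and Cxcl14 (ILMN_2760800) were called in both directions on different days. In every one of these calls, all 3 RAG1-/- arrays lay on one side of the 3 WT arrays. Cyclic loess turned the split at D3 into 0 higher and 12 lower, beside 20.1% and 26.1% of all tested probes. There it put the lower calls above the share of all probes. At D7 it gave 4 higher and 5 lower, beside 19.8% and 24.4%. It added calls as lower in RAG1-/- for Cxcl9, Cx3cl1, Cxcl16, Ccl7, Ccl25 (ILMN_2942353), Ccl27 (ILMN_3146018) and Cxcl12 (ILMN_3158250) at D3, for Ccl4, Cxcr4, Ccl11 and Cxcl12 (ILMN_3158250) at D7, and for Ccl11 at D21. It ended the calls of Ccl9 at D0, Cxcl1 and Ccl21c at D3, and Cxcr4 and Cxcl1 at D28. Cxcl16, lower at D3 and higher at D28, was then called in both directions, and Cxcr4 as lower at D7 alone. Statements below that a probe did not pass on a day refer to the deposited scaling. Cyclic loess moved the median difference of all tested probes by -0.10 at D0, -0.17 at D3, -0.19 at D7, -0.01 at D14, -0.13 at D21 and -0.20 at D28.

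Markers of other cell types moved with the genotype at D3 and D7. Of all tested probes, 26.9% were called higher and 21% lower at D3, and 27.4% and 19.3% at D7. All 7 erythroid probes were lower in RAG1-/- on both days, by differences of -3.85 (Hba-a1) to -7.87 (Slc4a1) at D3, with mean levels of 11.4 in WT and 6.09 in RAG1-/-. Skeletal muscle markers were at 9.65 and 10.02 in WT and at 11.48 and 11.45 in RAG1-/- on these days, and 9 and 7 of 12 probes were higher in RAG1-/-, with 1 lower at D7. Endothelial markers at D7 were at 6.42 in WT and 7.48 in RAG1-/-, with 7 of 9 probes higher. Of the 3 B cell probes only Vpreb1, a marker of B cell precursors, passed, at -4.17 and -3.70. The part of these cells in the chemokine results was not tested.

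Cxcl1, which binds the receptor of neutrophils, was higher in RAG1-/- than in WT at D0, D3, D7 and D28. At D0 the WT arrays read 4.62, 4.38 and 5.46 and the RAG1-/- arrays 6.64, 6.77 and 6.78, a difference of 1.91 ± 0.27 (SE, n = 3 arrays; adjusted p = 4.77e-06). At D3 the WT arrays read 4.76, 5.59 and 5.46 and the RAG1-/- arrays 6.89, 6.50 and 6.68, a difference of 1.42 (adjusted p = 6.61e-05). At D7 the WT arrays read 4.70, 5.64 and 4.63 and the RAG1-/- arrays 7.41, 7.59 and 7.52, a difference of 2.51 or 5.71-fold (adjusted p = 9.24e-09). On none of these days did the groups overlap. At D14 the RAG1-/- arrays were at 4.50, 5.22 and 5.00, among the WT arrays at 4.65, 4.80 and 4.81. At D28 the WT arrays were at 4.43, 4.42 and 4.45 and the RAG1-/- arrays at 5.21, 5.31 and 5.63, again without overlap, a difference of 0.95 (adjusted p = 0.00877). WT Cxcl1 stayed between 4.38 and 5.64 throughout. In RAG1-/- it was 1.82 lower at D14 than at D0 (adjusted p = 1.16e-05), 1.23 lower at D21 (adjusted p = 0.00108) and 1.34 lower at D28 (adjusted p = 6.47e-04).

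Over the 6 days together, with the 12 pool means as the samples and the day as a block, Cxcl1 was the chemokine probe with the smallest p. Its mean was higher in RAG1-/- on 6 of 6 days, by 1.27 ± 0.29 (adjusted p = 0.0455), and 4.23% and 1.52% of all tested probes were called higher and lower in this test. This call rested on most days: without D0, D3, D7, D21 or D28 the adjusted p lay between 0.0816 and 0.135, without WT D14 replicate 1 it was 0.086, and with cyclic loess the difference was 0.73 (adjusted p = 0.0991). Next came Ccr9 (-0.55, adjusted p = 0.107, higher on 0 of 6 days), Ccl21a (-0.57, adjusted p = 0.114), Ccl17 (-0.45, adjusted p = 0.136) and Ccl11 (-0.38, adjusted p = 0.153), none of which passed. Under cyclic loess the single-day differences of Cxcl1 were 0.54 at D3 (adjusted p = 0.129) and 0.19 at D28 (adjusted p = 0.669), or 0.71 and 0.39 relative to the shift of all probes. Without RAG1-/- D28 replicate 3 the D28 difference was 0.82 (adjusted p = 0.0515).

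Neutrophil markers moved beside Cxcl1 on some of these days. Of 17 tested neutrophil probes, 8 were higher and 1 lower in RAG1-/- at D0, 8 higher and 4 lower at D3 and also at D7, and 0 higher and 7 lower at D28. Of all tested probes, 12.6% were higher and 6.72% lower at D0, 26.9% and 21% at D3, 27.4% and 19.3% at D7, and 19.1% and 9.19% at D28. The mean level of the neutrophil probes was 8.39 to 8.46 in the RAG1-/- D0 arrays and 7.67 to 7.73 in the WT D0 arrays. Stfa2 was higher by 4.46, Stfa1 by 3.79 and Lcn2 by 1.63, and Mmp9 was at -1.04. At D28 that level was 6.34 to 6.41 in RAG1-/- and 6.82 to 7.22 in WT, so there it was lower where Cxcl1 was higher. Erythroid markers were lower in RAG1-/- at D0, in 7 of 7 probes. The part of these cells in the Cxcl1 result was not tested.

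The inflammatory CC ligands Ccl4 and Ccl9 differed in opposite directions on different days. Ccl4, which attracts monocytes and natural killer cells, was higher in RAG1-/- at D0 and D28 and lower at D3 (probe ILMN_1223257). At D0 the WT arrays read 4.39, 4.37 and 4.55 and the RAG1-/- arrays 6.82, 6.65 and 6.62, a difference of 2.26 ± 0.32 (adjusted p = 6.21e-06). At D3 the order was turned, with WT at 6.88, 6.79 and 6.14 and RAG1-/- at 5.54, 5.28 and 5.42, a difference of -1.19 (adjusted p = 0.00311). At D28 WT stood at 4.63, 4.85 and 4.55 and RAG1-/- at 6.80, 6.70 and 6.88, a difference of 2.12 (adjusted p = 1.59e-05). On all of these days the groups did not overlap. At D7, D14 and D21 they overlapped, with differences of -0.09, 0.01 and 0.34. The other Ccl4 probe (ILMN_1224472), below the median in mean, had differences of 0.00, -0.30 and 0.12 at D0, D3 and D28, so the probes of this gene disagreed.

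Ccl9 was bright in every pool, and it was higher in RAG1-/- at D0, D21 and D28 and lower at D3. At D3 the WT arrays read 8.51, 8.79 and 8.57 and the RAG1-/- arrays 7.73, 7.42 and 7.54, a difference of -1.06 ± 0.21 (adjusted p = 1.36e-04). At D21 WT was at 9.05, 8.98 and 8.92 and RAG1-/- at 9.53, 9.72 and 9.65, a difference of 0.64 (adjusted p = 0.0267). At D28 WT was at 8.20, 8.48 and 8.04 and RAG1-/- at 9.23, 9.13 and 9.19, a difference of 0.94 (adjusted p = 0.00134). The genotypes were thus apart without overlap early and late, and at D14, where both were highest, the RAG1-/- arrays (9.81, 9.83 and 9.78) lay between the WT arrays (9.19, 10.08 and 10.27). The D0 difference was 0.63 (adjusted p = 0.0369), from WT at 7.85, 7.38 and 6.93 and RAG1-/- at 8.03, 8.00 and 8.00. It was 0.40 without WT D0 replicate 3 (adjusted p = 0.263) and did not pass without WT D0 replicate 2 or any RAG1-/- D0 array (adjusted p = 0.0768 to 0.094). The D21 call was lost without WT D21 replicate 2 or 3 or RAG1-/- D21 replicate 2 or 3 (adjusted p = 0.0575 to 0.0862).

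Ccl11, or eotaxin, an attractant of eosinophils, was lower in RAG1-/- at D0 and D3 (probe ILMN_2647757). At D0 the WT arrays read 6.21, 6.16 and 6.35 and the RAG1-/- arrays 5.45, 5.39 and 5.61, a difference of -0.75 ± 0.27 (adjusted p = 0.0464). At D3 the WT arrays read 5.98, 5.45 and 5.97 and the RAG1-/- arrays 5.27, 4.97 and 4.96, a difference of -0.73 (adjusted p = 0.0252). With cyclic loess the differences were -1.10 at D0 and -1.50 at D3, and D7 (-1.02, adjusted p = 0.00532) and D21 (-0.99, adjusted p = 0.0141) passed as well. Neither D0 nor D3 showed overlap, but leaving out any 1 of the 6 D0 arrays ended the D0 call (adjusted p = 0.0729 to 0.134). The D3 call ended without WT D3 replicate 1 or 3 or RAG1-/- D3 replicate 2 or 3 (adjusted p = 0.0737 to 0.0848). The second Ccl11 probe (ILMN_2862179), below the median in mean, was called on no day. Ccl7, an attractant of monocytes, stood at 5.40, 5.54 and 5.40 in RAG1-/- D0 and at 4.40, 5.08 and 4.52 in WT D0, without overlap, but did not pass on this or any other day (0.78, adjusted p = 0.136). Ccl3, Ccl5 and Ccl6 also passed on no day, with pool means of 4.61 to 5.12, 4.44 to 5.08 and 4.57 to 5.23.

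Among the stromal and marrow members, Cxcl16 had the largest genotype difference of all 28 probes. Cxcl16 is made as a membrane-bound protein by macrophages and other cells and is shed to attract cells bearing Cxcr6. At D28 the WT arrays read 6.48, 4.94 and 4.66 and the RAG1-/- arrays 8.56, 8.72 and 8.52, a difference of 3.24 ± 0.35 or 9.45-fold (adjusted p = 8.38e-08). On the 5 other days it did not pass. At D0, for instance, the arrays overlapped, with WT at 4.57, 5.93 and 5.10 and RAG1-/- at 6.19, 5.89 and 5.71.

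Cx3cr1, the receptor of fractalkine carried by monocytes, macrophages and osteoclast precursors, was higher in RAG1-/- at D28 as well. The WT arrays read 5.79, 4.48 and 4.38 and the RAG1-/- arrays 6.96, 7.00 and 6.80, a difference of 2.04 ± 0.38 (adjusted p = 2.07e-04). The 3 RAG1-/- arrays lay above all other arrays of this probe, of which a WT D7 array at 6.43 was the brightest. The methods' t-test did not call Cx3cr1 at D28 (adjusted p = 0.0575). Its ligand Cx3cl1 read 4.32, 4.73 and 4.54 in WT D28 and 5.41, 5.56 and 5.66 in RAG1-/- D28, without overlap, and did not pass (1.01 ± 0.42, adjusted p = 0.069).

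Cxcr4, the receptor of Cxcl12, was higher in RAG1-/- at D28 too. The WT arrays read 4.40, 4.66 and 5.86 and the RAG1-/- arrays 6.34, 6.54 and 6.23, a difference of 1.40 ± 0.41 (adjusted p = 0.0124). No other day passed, and the WT D7 arrays, at 6.09, 4.88 and 7.02, spread as widely as the genotypes differed. The call was lost without WT D28 replicate 1 (1.11, adjusted p = 0.0655) or 2 (1.24, adjusted p = 0.0532). With cyclic loess the difference was 0.65 (adjusted p = 0.245), or 0.85 relative to the shift of all probes.

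Cxcl12 itself went the other way at D28 on its brightest probe (ILMN_2658908). There the WT arrays read 10.54, 10.47 and 10.48 and the RAG1-/- arrays 9.16, 8.93 and 9.06, a difference of -1.45 ± 0.20 (adjusted p = 4.39e-06). It was also lower at D0, with WT at 10.79, 10.60 and 10.59 and RAG1-/- at 9.78, 9.85 and 9.75 (-0.87, adjusted p = 0.0024). At D7 it was higher, with WT at 8.98, 9.12 and 9.24 and RAG1-/- at 9.95, 9.96 and 9.96 (0.84, adjusted p = 0.00108). None of these groups overlapped. At D14 the WT arrays were split, with replicate 1 at 9.36 and replicates 2 and 3 at 10.82 and 10.58, against 10.80, 10.77 and 10.88 in RAG1-/-. The difference there was 0.56 with all arrays (adjusted p = 0.147) and 1.45 with replicate 1 alone (adjusted p = 6.06e-08, the spread being taken from the other pools). The other Cxcl12 probes above the median (ILMN_3158250 and ILMN_2737302) passed on no day with all arrays. Their D28 differences were -0.54 and -0.28, at D7 they were -1.02 and 0.37, and at D0 they were -0.47 and 0.60. The probes of this gene thus differed in sign at D7 and at D0, both days on which the bright probe was called.

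Cxcl14, a chemokine of skin and mesenchymal tissues, had a bright probe (ILMN_2760800) that was higher in RAG1-/- at D0 and lower at D3 and D21. At D0 the WT arrays read 6.84, 7.05 and 6.83 and the RAG1-/- arrays 8.18, 8.14 and 8.07, a difference of 1.22 ± 0.24 (adjusted p = 5.33e-04). At D3 the WT arrays read 8.62, 8.68 and 8.62 and the RAG1-/- arrays 7.00, 6.84 and 7.19, a difference of -1.63 (adjusted p = 2.6e-06). The genotypes thus changed places without overlap between these days. At D21 WT was at 8.06, 8.31 and 8.02 and RAG1-/- at 7.38, 7.37 and 7.10, a difference of -0.85 (adjusted p = 0.0115, and 0.0586 without RAG1-/- D21 replicate 3). The dim probe (ILMN_2659426) was higher in RAG1-/- at D7, at 5.14, 5.66 and 5.20 against 4.33, 4.39 and 4.40 (0.96, adjusted p = 0.0226), and at D28, at 5.70, 5.23 and 6.02 against 4.62, 4.35 and 4.38 (1.20, adjusted p = 0.00943). Both calls of the dim probe ended without 1 array, namely WT D7 replicate 1 (adjusted p = 0.0509) or RAG1-/- D7 replicate 2 (adjusted p = 0.101) at D7, and RAG1-/- D28 replicate 3 (adjusted p = 0.06) at D28. At D3 the dim probe was at 0.54, the opposite sign of the bright one, and did not pass. The mean of the dim probe, 4.79, lay just above the limit of 4.72, and its highest pool was RAG1-/- D28 at 5.65. Its D28 call is therefore not independent of the filter.

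**Figure D3:**
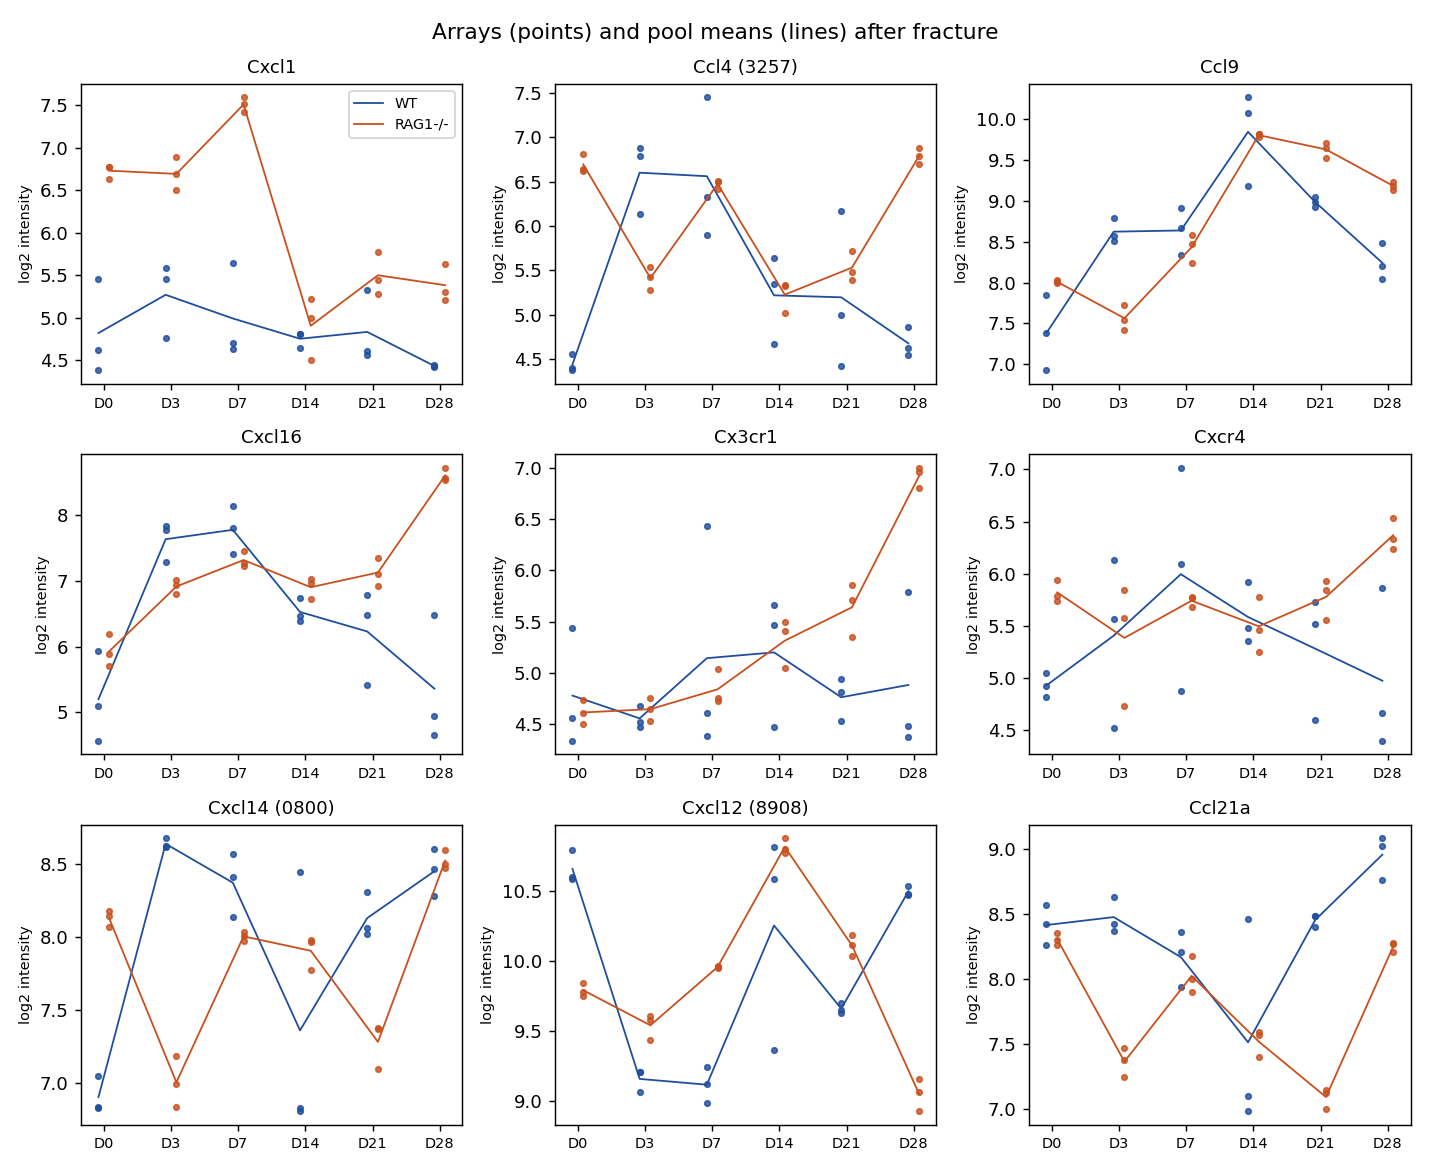
Log2 intensity of 9 chemokine probes by day after fracture (D0 is intact femur), with WT in blue and RAG1-/- in orange; points are single arrays (3 per pool) and lines join the pool means. Cxcl16, Cx3cr1, Cxcr4 and Ccl4 of RAG1-/- end high at D28, Cxcl12 ends low, and Cxcl1 of RAG1-/- is high up to D7.

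Monocyte and macrophage markers were also higher in RAG1-/- at D28. The chemokine probes called higher on that day were Cxcl16, Cx3cr1, Cxcr4, Ccl4, Ccl9, Cxcl1 and the dim Cxcl14 probe. Of these, Ccl4, Ccl9 and Cxcl1 were higher at D0 as well. Of 12 tested probes of that list, 8 were higher in RAG1-/- at D28 and none lower, beside 19.1% and 9.19% of all tested probes. The mean level of the listed probes was 7.40 to 7.53 in the RAG1-/- D28 arrays and 5.90 to 5.97 in the WT D28 arrays. Ms4a7 was higher by 3.29, Cd68 by 2.37, Emr1 by 2.16 and 1.50 on its probes, and Mrc1 by 2.15. On the other days 3, 4, 5, 0 and 2 of the 12 were higher, in the order D0, D3, D7, D14 and D21, and 2 were lower at D3. Of all tested probes, 12.6%, 26.9%, 27.4%, 2.33% and 14.4% were higher on those days, and 21% were lower at D3. The part of macrophage number in the D28 result was not tested.

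Of the lymphoid and homing chemokines, the Ccl21 probes carried most of the differences. Ccl21 is the ligand of Ccr7 and guides lymphocytes and dendritic cells into lymphatic vessels and lymph nodes, and the mouse genome holds near-identical copies of it, so which copy each probe read is uncertain. The probe named Ccl21a was lower in RAG1-/- at D3, D21 and D28. At D3 the WT arrays read 8.42, 8.63 and 8.37 and the RAG1-/- arrays 7.47, 7.38 and 7.24, a difference of -1.11 ± 0.22 (adjusted p = 1.23e-04). At D21 WT was at 8.40, 8.48 and 8.48 and RAG1-/- at 7.00, 7.15 and 7.13, a difference of -1.36 (adjusted p = 3.96e-05). At D28 WT was at 8.76, 9.08 and 9.02 and RAG1-/- at 8.21, 8.27 and 8.27, a difference of -0.71 (adjusted p = 0.0169). The groups were apart on these days and overlapped at D0 and D7. At D14 WT replicate 1 was at 8.46 and replicates 2 and 3 at 7.10 and 6.98, around RAG1-/- at 7.56, 7.59 and 7.40, and with replicate 1 alone the difference was -0.94 (adjusted p = 6.19e-04, the spread again from the other pools). The D28 call was lost without WT D28 replicate 2 (-0.64, adjusted p = 0.0595) or RAG1-/- D28 replicate 1 (adjusted p = 0.0523).

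The probe named Ccl21c differed from it in time. It was higher in RAG1-/- at D3, at 5.39, 5.66 and 6.00 against 4.37, 4.58 and 4.55 in WT (1.19 ± 0.31, adjusted p = 0.00215), and at D7, at 6.06, 6.21 and 5.90 against 4.39, 4.36 and 4.42 (1.67, adjusted p = 5.77e-05). It was lower at D21, at 5.17, 5.93 and 5.86 against 6.60, 6.68 and 7.03 (-1.11, adjusted p = 0.00843), and at D28, at 6.41, 6.57 and 6.45 against 6.84, 8.31 and 7.29 (2.01-fold lower, adjusted p = 0.0152). The WT arrays at D3 and D7 were near the lowest value of the table, and no day called showed overlap. Cyclic loess gave 0.58 at D3 (adjusted p = 0.159). The D21 call ended without RAG1-/- D21 replicate 1 (-0.87, adjusted p = 0.0738) and the D28 call without WT D28 replicate 2 (-0.59, adjusted p = 0.161). At D3 the probes of Ccl21a and Ccl21c thus passed in opposite directions.

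Ccr9, the receptor of gut and thymus homing, was lower in RAG1-/- at D7, where the WT arrays read 5.83, 6.76 and 5.17 and the RAG1-/- arrays 4.44, 4.34 and 4.42 (-1.52 ± 0.28, adjusted p = 6.33e-05). The RAG1-/- arrays of Ccr9 lay between 4.34 and 4.72 on all days, close to the lowest value of the table. Its mean of 4.74 passed the limit of 4.72 through the WT D7 arrays, its highest pool at 5.92, while its median array was at 4.56. The D7 results of Ccr9 are therefore not independent of the filter. The methods' t-test gave an adjusted p of 0.0758 at D7. Ccl17, which attracts cells bearing Ccr4, was lower in RAG1-/- at D28, with WT at 5.06, 5.57 and 6.23 and RAG1-/- at 4.68, 4.30 and 4.75 (-1.04 ± 0.39, adjusted p = 0.0475). That call did not pass without WT D28 replicate 2 or 3 or any RAG1-/- D28 array (adjusted p = 0.0729 to 0.216). Ccl19, Ccl25, Ccr6 and both Ccl27 probes passed on no day, with Ccl19 arrays, for example, at 4.44 to 6.65. Neither did the platelet chemokine Cxcl4 (platelet factor 4), whose D28 arrays did not overlap, at 6.03, 5.90 and 7.33 in WT and 7.44, 7.73 and 7.72 in RAG1-/- (1.21 ± 0.49, adjusted p = 0.063). The interferon-gamma induced Cxcl9 was below WT in all 3 RAG1-/- D3 arrays, at 4.50, 4.82 and 4.62 against 6.25, 5.48 and 5.40, and did not pass (-1.07 ± 0.46, adjusted p = 0.055).

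Against the intact femur, the WT calls were most frequent at D3 and D7, led by rises of Cxcl16, Ccl4 and Cxcl14 and falls of Ccl21c and Cxcl12. The RAG1-/- calls stood mainly from D14 on, with rises of Ccl9 on each of those days and of Cxcl16 and Cx3cr1 at D28, and falls of Cxcl1. A change was called at an adjusted p under 0.01 and more than 2-fold. The fit shares its estimate of spread over all pools, although WT arrays varied more than RAG1-/- arrays. The WT and RAG1-/- counts are therefore not directly comparable. For Ccl4, Ccl11, Cxcl12 and Cxcl14, the changes against D0 are those of the brightest probe. In WT, 5 of the 28 probes were higher and 2 lower than D0 at D3 (beside 11.9% and 14.6% of all tested probes), 5 and 2 at D7 (11.1% and 14.4%), 2 and 1 at D14 (7.49% and 5%), 2 and 0 at D21 (4.44% and 5.84%), and 1 and 1 at D28 (3.21% and 6.85%). In RAG1-/-, 0 were higher and 2 lower at D3 (0.911% and 2.05%), 1 and 0 at D7 (0.965% and 1.98%), 2 and 2 at D14 (2.32% and 2.42%), 1 and 3 at D21 (3.31% and 4.29%), and 3 and 1 at D28 (1.92% and 2.28%). Probes changed on at least 1 day numbered 9 in WT and 8 in RAG1-/-, of which 5 changed in both (Ccl4, Ccl9, Cxcl12, Cxcl14 and Cxcl16), and 16 of the 28 changed in neither. These are 32.1% and 28.6% of the 28, beside 40.2% and 11.6% of all tested probes. The 5 shared probes are 55.6% of the WT and 62.5% of the RAG1-/- ones, and over all tested probes these shares were 20.9% and 72.2%. Cyclic loess turned the splits of RAG1-/- D14 into 1 higher and 2 lower (2.13% and 2.59% of all tested probes), of WT D21 into 2 and 1 (4.06% and 5.97%), and of WT D28 into 2 and 0 (4.34% and 5.33%).

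In WT, Cxcl16 rose by 2.43 ± 0.35 at D3 (adjusted p = 1.41e-06) and by 2.58 at D7 (adjusted p = 5.58e-07), from arrays at 4.57 to 5.93 at D0 to arrays at 7.29 to 7.83 and 7.40 to 8.13. Ccl4 rose by 2.16 and 2.12 on these days (adjusted p = 2.44e-06 and 3.18e-06) and Cxcl14 by 1.73 and 1.47 (adjusted p = 1.03e-06 and 1.31e-05). Ccl7 rose by 1.66 at D3, from 4.40, 5.08 and 4.52 to 6.70, 6.04 and 6.24 (adjusted p = 3.46e-04). All of these WT D3 and D7 arrays lay above the WT D0 arrays. Marker lists moved in the same pools from D0 to D3, with mean levels of skeletal muscle markers going from 12.1 to 9.65, monocyte and macrophage markers from 6.01 to 5.32, neutrophil markers from 7.70 to 6.98 and osteoblast markers from 8.69 to 9.85. Their part in these changes was not tested. Ccl9 rose on 4 days and most at D14, by 2.46 ± 0.21 (adjusted p = 7.15e-10), and the single array of replicate 1 lay 1.81 above D0. In a fit of the compared groups alone, the Ccl9 rises at D3, D7 and D21 did not pass (adjusted p = 0.0158 to 0.027). Neither did the Ccl4 rise at D7 (adjusted p = 0.0125). Ccr9 rose by 1.14 at D7 (adjusted p = 0.00149), and by 0.72 without WT D7 replicate 2 (adjusted p = 0.0301). With the compared groups alone its adjusted p was 0.112.

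The WT probes that fell early were Ccl21c and Cxcl12. Ccl21c fell by 2.34 at D3 (adjusted p = 3.14e-07) and was 5.46-fold lower at D7 (adjusted p = 1.53e-07), from 7.21, 7.41 and 5.90 at D0 to arrays between 4.36 and 4.58. Cxcl12 fell by 1.50 and 1.54 (adjusted p = 4.46e-07 and 2.82e-07) and was back at 10.54, 10.47 and 10.48 by D28. The single array of WT D14 replicate 1 lay at -1.30 from D0 (adjusted p = 1.73e-07, with the spread of the other pools). Later in WT, Cxcl14 was higher than D0 at D21 by 1.22 (adjusted p = 3.66e-04) and at D28 by 1.55 (adjusted p = 2.34e-05). The D28 rise of Cxcl14 did not pass with the compared groups alone (adjusted p = 0.0109). Ccl11 was lower at D14 by -1.19 (adjusted p = 0.00105) and at D28 by -1.06 (adjusted p = 0.00384). Without WT D14 replicate 1 the D14 change of Ccl11 was -0.92 (adjusted p = 0.0121). The Cxcl16 rise at D14 (1.33, adjusted p = 0.00468) did not pass without WT D0 replicate 1 or 3 or any WT D14 array (adjusted p = 0.0115 to 0.0465), nor did Ccl11 at D28 without WT D0 replicate 1 or 3 or WT D28 replicate 1 or 3 (adjusted p = 0.0115 to 0.0198).

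In RAG1-/-, the probes that rose were Ccl9, Cxcl12, Cxcl16 and Cx3cr1. Ccl9 rose by 1.80 ± 0.21 at D14 (adjusted p = 3.13e-07), 1.62 at D21 (adjusted p = 1.09e-06) and 1.17 at D28 (adjusted p = 2.13e-04), with D0 arrays at 8.00 to 8.03. Cxcl16 rose by 2.67 at D28 (adjusted p = 2.5e-06) and Cx3cr1 by 2.31, from 4.74, 4.50 and 4.61 (adjusted p = 7.64e-05). The D28 arrays of both lay above all RAG1-/- arrays of the earlier days. Cxcl12 rose by 1.03 at D14 (adjusted p = 5.2e-04), and by 0.99, under the 2-fold limit, without RAG1-/- D14 replicate 3. Cxcl16 at D7 (1.39, adjusted p = 0.00758) did not pass when any 1 of its 6 arrays was left out (adjusted p = 0.0138 to 0.0436). These fits take their spread from all pools, and the WT pools spread more widely. With the compared groups alone, no RAG1-/- call against D0 was lost.

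Those that fell in RAG1-/- were Cxcl1, described above, Ccl4, Cxcl14 and Ccl21a. Ccl4 fell by 1.28 at D3 (adjusted p = 0.00761), 1.47 at D14 (adjusted p = 0.00166) and 1.17 at D21 (adjusted p = 0.00936). Leaving out any 1 of the 6 arrays ended the calls at D3 and D21 (adjusted p = 0.0171 to 0.0419), and the D14 call ended without replicate 1 of RAG1-/- D0 or D14 (adjusted p = 0.0105 and 0.0129). Cxcl14 fell by 1.12 at D3 (adjusted p = 0.00217), with adjusted p = 0.0102 to 0.0167 without replicate 1 or 2 of either day. Ccl21a fell by 1.21 at D21, from 8.35, 8.30 and 8.26 to 7.00, 7.15 and 7.13 (adjusted p = 1.26e-04). The fall of Cxcl1 at D21 had an adjusted p of 0.0101 without RAG1-/- D21 replicate 3.

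**Figure D4:**
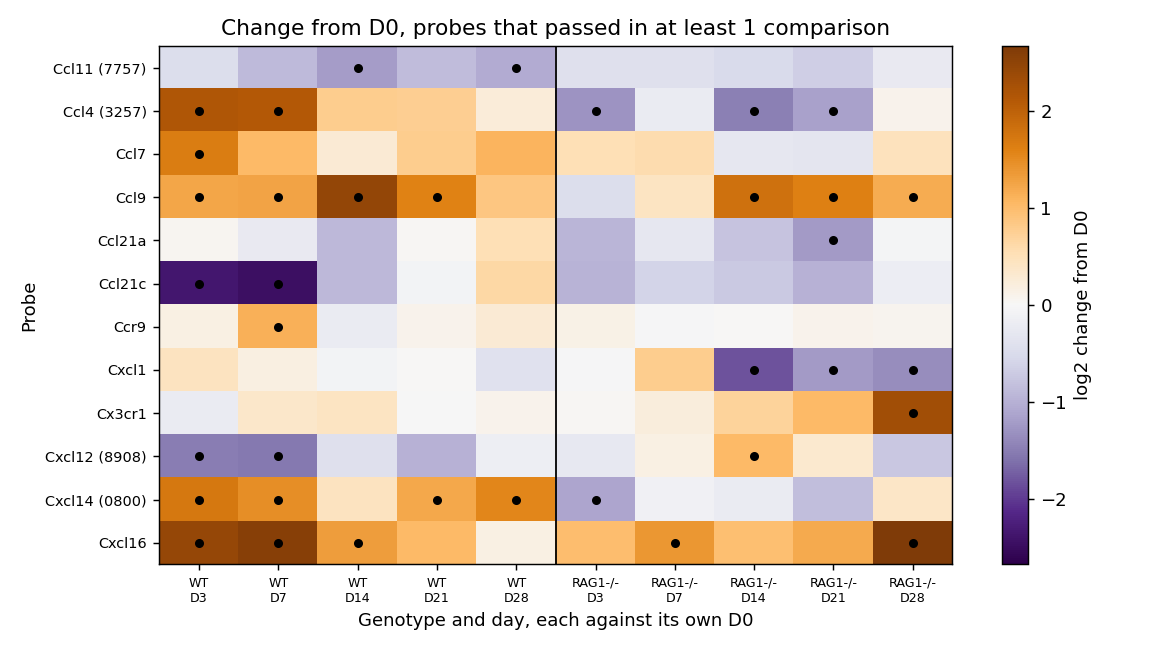
Log2 change from the D0 pool of the same genotype for the 12 probes called in at least 1 comparison (rows) at 5 days in WT (left of the line) and RAG1-/- (right); brown is higher and purple lower than D0, and a dot marks an adjusted p under 0.01 with more than 2-fold change. The WT dots gather at D3 and D7, with 7 each, and 3 dots of rise in RAG1-/- stand at D28.

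Whether the genotypes changed differently was tested as the difference of their changes from D0, called at an adjusted p under 0.05 and more than 2-fold. At D3, 2 of the 28 probes had the higher change in RAG1-/- and 6 the lower (beside 13.2% and 10.6% of all tested probes), at D7 the counts were 2 and 3 (12.2% and 8.62%), at D14 1 and 2 (4.04% and 6.02%), at D21 1 and 4 (4.09% and 3.96%), and at D28 2 and 1 (5.67% and 3.01%). With cyclic loess the splits were 1 and 7 at D3 (10.9% and 12.3%), 2 and 5 at D7 (10.2% and 10.2%) and 2 and 3 at D28 (4.17% and 4.13%). The largest was that of Ccl4 (ILMN_1223257) at D3, -3.45 ± 0.46 (adjusted p = 8.3e-07), where WT rose and RAG1-/- fell. The WT D0 pool mean of this probe, 4.44, was near the lowest value of the table. The other Ccl4 probe disagreed, with genotype differences of 0.00 at D0 and -0.30 at D3. Cxcl14 (ILMN_2760800) was similar in form, at -2.85 ± 0.35 (adjusted p = 2e-07). Its dim probe had genotype differences of 0.48 at D0 and 0.54 at D3. The Ccl4 difference remained past the limits at D7, D14 and D21, at -2.35, -2.25 and -1.92, and the Cxcl14 difference at D7, D21 and D28, at -1.59, -2.07 and -1.15. Cxcl12 (ILMN_2658908) had the opposite sign on 4 days, at 1.25, 1.71, 1.43 and 1.32 from D3 to D21. The other Cxcl12 probes above the median were not called here. Their genotype differences were -0.47 and 0.60 at D0 and -1.02 and 0.37 at D7. Cxcl16 and Cx3cr1 had the higher change in RAG1-/- at D28, by 2.51 ± 0.50 (adjusted p = 7.82e-04) and 2.20 ± 0.54 (adjusted p = 0.00628). These tests share their D0 arrays with each other and with the D0 comparison, in which Ccl4, Cxcl14 and Cxcl1 were higher and Cxcl12 lower in RAG1-/-.

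Probes below the median were fitted with all 25697 probes, and 11 of the 37 chemokine probes among them (29.7%) were called between genotypes on at least 1 day, beside 17% of all probes at or below the median. Cxcl17, a mucosal chemokine, had the largest difference, with pool means of 5.97 in WT D3 and 4.48 in RAG1-/- D3 (-1.49 ± 0.21, adjusted p = 2.17e-06). Cxcr7, an atypical receptor that takes up Cxcl12, was higher in RAG1-/- by 0.50 at D3 and 0.47 at D7 (adjusted p = 0.0175 and 0.0268). Lower in RAG1-/- were a Cxcr5 probe (ILMN_2990494) at D0 by -0.42, Ccr2, Ccr8, Cxcl13 and a Cxcl12 probe (ILMN_3078973) at D7 by -0.82, -0.79, -0.58 and -0.43, the second Ccl4 probe at D21 by -0.60, and Ccr1l1 and Cxcr6 at D28 by -0.57 and -0.53. The arrays of Ccr2, Cxcl13 and that Cxcl12 probe overlapped between the genotypes. Pool means of these probes were at or below 5.97, and most were close to the lowest value of the table.

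Other genes of the chemokine system were taken from lists. Of all tested probes, 12.6% were called higher and 6.72% lower at D0, 26.9% and 21% at D3, and 27.4% and 19.3% at D7. From D14 to D28 the shares were 2.33% and 1.66%, 14.4% and 8.94%, and 19.1% and 9.19%. With so few probes per list, the counts below are no result about a list as a whole. Among cytokines and NF-kappaB factors that induce chemokines, with 19 tested probes, 4 were higher and 0 lower in RAG1-/- at D0, 6 and 2 at D3, 6 and 3 at D7, 0 and 0 at D14, 1 and 0 at D21, and 4 and 1 at D28. The cytokine Il1b was higher by 1.39 at D0, 0.68 at D3, 1.87 at D7 and 0.43 at D28 (adjusted p = 1.23e-07, 6.8e-04, 8.9e-11 and 0.0422). The NF-kappaB subunit Relb was higher on the same days and at D21, by 1.36, 1.59, 1.37, 1.61 and, at D21, 0.78. Irf1, a transcription factor of the interferon response, was lower by -2.17 at D3 and -1.44 at D7, the NF-kappaB subunit Rela by -1.15 at D3, and Il6 by -1.03 at D28. The part of these genes in the chemokine results was not tested.

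Genes that signal below chemokine receptors, with 22 tested probes, gave 2 higher and 3 lower at D0, 5 and 3 at D3, 3 and 5 at D7, 0 and 0 at D14, 5 and 4 at D21, and 6 and 1 at D28. Gnai2, a G protein alpha subunit that couples to these receptors, was higher on all days but D14. Was, an actin regulator of blood cells, was higher by 2.98 at D28 and 2.13 at D21, whereas Vav1, an exchange factor of blood cells, was at -1.94 at D3 and 1.00 at D28. The receptor kinase Adrbk1 and the arrestin Arrb2, which end receptor signalling, were lower at D3 by -2.09 and -1.75, and Arrb2 was higher at D28 by 0.68. The probes of Cdc42 passed in opposite directions at D7, at 1.97 and -1.28.

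Proteases that trim or shed chemokines, with 12 tested probes, gave 0 higher and 2 lower at D0, 4 and 3 at D3, 4 and 3 at D7, 0 and 2 at D14, 2 and 2 at D21, and 3 and 3 at D28. Mmp2, which cleaves Cxcl12, was higher by 3.30 at D3 and 3.38 at D7, and Mmp14 by 3.04 at D21 and 3.31 at D28. Mmp13 and Mmp9 were lower at D3 by -3.53 and -3.09. Adam17, which can shed membrane-bound Cx3cl1 and Cxcl16, was higher at D28 by 1.54 (adjusted p = 0.00433). Chemokines whose symbols fall outside the naming rule, with 5 tested probes, gave 1 higher and 2 lower at D0, 1 and 0 at D3, 2 and 0 at D7, and 0 and 0, 1 and 0, and 1 and 0 from D14 on. The platelet chemokine Ppbp was lower at D0 by -3.20 and -2.63 on its probes, Scye1, the precursor of a monocyte-attracting cytokine, was higher by 2.72 at D3 and 2.79 at D7, and Mif was higher at D0, D7, D21 and D28 by 0.34 to 0.68. Atypical and older-named receptors, with 6 tested probes, gave calls at D0 and D3 only: Darc, the chemokine receptor of red cells and venules, was at -1.28 at D0 and 1.36 at D3, and Il8ra, a neutrophil chemokine receptor, at -0.91 at D3.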

How the data were processed

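The deposited log2 intensities, which the authors pre-processed with beadarray and quantile normalized between arrays with lumi (versions and genome build not given in the sources used here), were used as they stand for 36 arrays in 12 groups. Of the files' other columns, 264 are named by chip position and were not used. A probe was tested when its mean over all arrays lay above the median (12848 of 25697). One limma fit (limma 3.58.1 in R 4.3.3) held a mean for each group. Contrasts were RAG1-/- minus WT within a day (adjusted p under 0.05), each day against D0 (adjusted p under 0.01 and over 2-fold), and the difference of these changes (adjusted p under 0.05 and over 2-fold). The over-days test used pool means with day as a block. p-values are two-sided and Benjamini-Hochberg adjusted over all tested probes. The number of arrays limits the precision.

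Of 51 symbols, 48 are current in RefSeq, and Ccl27, Cxcl4 and Cxcr7 are now Ccl27a, Pf4 and Ackr3. Values per array are given for up to 5 probes a direction called between genotypes without overlap, up to 3 a direction called against D0, the 5 smallest p over the days, textbook members where tested, and up to 4 genes a direction of each other list. The members and lists were chosen with earlier results of these data known. Calls of the marker lists at D0, D3, D7 and D28 were, as higher and lower in RAG1-/-, 1 and 0, 1 and 2, 1 and 2, and 0 and 1 of 6 T cell probes, 0 and 1 on each of these days of 3 B cell probes, 0 and 7, 0 and 7, 0 and 7, and 0 and 6 of 7 erythroid probes, 3 and 0, 4 and 1, 7 and 0, and 0 and 2 of 9 endothelial probes, 7 and 3, 4 and 5, 5 and 4, and 5 and 2 of 11 osteoblast probes, and 1 and 4, 9 and 0, 7 and 1, and 3 and 4 of 12 skeletal muscle probes. Neutrophil and macrophage probes, and the shares of all tested probes called on each day, are given with the results.

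Alternatives were no filter, a stricter filter (over the 60th percentile), the brightest probe per gene, cyclic loess, the replicate number as a block, the compared groups alone, the methods' t-test with Benjamini-Hochberg adjustment, other fold limits, and each array left out. Array weights per group were chosen after seeing the data. The fits were tested on simulated data. Figures were drawn with matplotlib 3.10.9 in Python 3.11.15. The levels and tests of 1 member symbol, and 1 lymphocyte marker, are not reported here.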

Additional observations from a re-analysis of the deposited data

Results flagged for a closer look

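For 11 chemokine probes the change from D0 differed between RAG1-/- and WT on at least 1 day by a test of that difference. The share of all tested probes is given above for each day, at D3 for instance 13.2% and 10.6%, but not for at least 1 day. The count of 11 is therefore no result about the family. Each probe is given here on the day of its smallest p, as RAG1-/- change minus WT change. At D3 the differences were -3.45 for Ccl4 (ILMN_1223257), -2.85 for Cxcl14 (ILMN_2760800), -1.69 for Ccl9 and -1.44 for Ccl27 (ILMN_3146018). At D7 they were 1.86 for Ccl21c, 1.71 for Cxcl12 (ILMN_2658908) and -1.17 for Ccr9. The other probes of Ccl4, Cxcl12 and Cxcl14 departed from these, as described above. At D14 the difference was -1.75 for Cxcl1, at D21 it was -1.25 for Ccl21a, and at D28 it was 2.51 for Cxcl16 and 2.20 for Cx3cr1. The Ccl27 difference did not pass in limma without WT D0 replicate 2 or 3 or WT D3 replicate 1 or 3. Nor did it without any 1 of the RAG1-/- D0 and D3 arrays (adjusted p = 0.0503 to 0.106 over these fits). The Ccr9 difference did not pass without WT D0 replicate 2 or 3 or replicate 2 of either D7 pool. It was also lost without RAG1-/- D0 replicate 1 or 3 (adjusted p = 0.0505 to 0.132 over these fits). Without the filter neither passed (adjusted p = 0.0754 for Ccl27 and 0.0519 for Ccr9).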

How the results depend on the processing

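Among the called results, none changed sign under the settings each was run with. Values that did not pass could, as Cxcl12 (ILMN_2737302) at D7 did (0.37, and -0.02 with cyclic loess). Counts of chemokine probes called are given with all arrays and the stated limits first, then under the other setting. For most of these settings, and with 1 array left out, the share of all tested probes called is not given. The counts therefore show how calls depend on the setting and are no result about the family. Between genotypes, D7 had 5 called, and 10 without the filter, 3 with the stricter filter, 9 with cyclic loess and 3 with a 2-fold limit. D3 had 7, and 12 with cyclic loess. D0 had 6, and 3 with a 2-fold limit. D21 had 4, and 8 with the compared groups alone and 2 with a 2-fold limit. D28 had 11, and 7 with array weights, which were chosen after seeing the data. D14 had 0. With WT D14 replicate 1 alone, an array assumed to vary like the other pools, Ccl21a was at -0.94 and Cxcl12 probes at 1.45 and 1.38. Against D0, WT D7 had 7, and 4 with the groups alone and 11 with no fold limit at an adjusted p under 0.05. WT D14 had 3, and 1 and 5 under those settings. WT D21 had 2, and 1 and 6. WT D28 had 2, and 0 and 5, and 1 with array weights. RAG1-/- D3 had 2, and 1 without the filter and 4 with no fold limit. RAG1-/- D7 had 1, and 0 without the filter, with cyclic loess or with the replicate block. RAG1-/- D21 had 4, and 7 with no fold limit. The difference of changes had 3 at D28, and 5 with cyclic loess, and 3 at D14, and 5 with WT D14 replicate 1 alone. Over the 6 days 1 was called, and 0 without the filter, with cyclic loess, or without D0, D3, D7, D21, D28 or both D3 and D7, 3 with the pool as a random block, and 5 with the replicate block within days. The methods' t-test with Benjamini-Hochberg adjustment gave 6, 9, 4, 0, 6 and 9 from D0 to D28. It ended the calls of Ccl9 at D0, Ccl11 at D3, Ccr9 at D7 and Ccl21c at D21 and D28. Those of Ccl17, Cx3cr1 and Cxcr4 at D28 ended as well (adjusted p = 0.0575 to 0.227 over these calls).

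With 1 array left out, genotype counts were 4 to 6 at D0, 6 to 8 at D3, 4 to 7 at D7, 0 to 2 at D14, 2 to 5 at D21 and 7 to 12 at D28. The extremes were 2 at D14 without WT D14 replicate 1 and 1 without replicate 2, 2 at D21 without RAG1-/- D21 replicate 3, and 7 at D28 without WT D28 replicate 2. Against D0 they were 7 to 8, 7 to 10, 2 to 3, 2 to 4 and 1 to 2 in WT from D3 to D28, with 4 at D21 without WT D0 replicate 2 and 1 at D28 without WT D0 replicate 3 or WT D28 replicate 1. In RAG1-/- they were 0 to 1 at D3, 0 at D7 without any of the 6 arrays, 3 to 4, 2 to 3 and 4 later, with 2 at D21 without RAG1-/- D21 replicate 3. The difference of changes gave 5 to 7, 4 to 7, 2 to 3, 4 to 5 and 2 to 4, with 5 at D3 without replicate 1 of WT D0 or RAG1-/- D0 or without RAG1-/- D3 replicate 3. Over the days the count was 0 to 1.

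The replicate numbers did not pair the arrays, since deviations of 198 same-numbered pairs correlated between -0.099 and 0.102. The replicate block ended the calls of Ccl17 at D28 (adjusted p = 0.0574), Cxcl16 in RAG1-/- at D7 (adjusted p = 0.011) and Ccl4 in RAG1-/- at D21 (adjusted p = 0.0103). Array weights ended those of the dim Cxcl14 probe at D7 and D28, Ccl17, Ccl21c and Cxcl1 at D28 (adjusted p = 0.0558 to 0.12), and in WT Cxcl16 at D14 and Ccl11 at D28. The cause of these losses was not tested. The 37 dim chemokine probes read 4.19 to 6.63 over all arrays, and the smallest differences called among them in each direction were -0.42 (Cxcr5) and 0.47 (Cxcr7).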
